A study of Aedes albopictus with 6 samples.

Results

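Translation factor and ribosome genes are described here as hosts of circular RNAs (circRNAs), closed transcripts counted by the reads that cross their back-splice junction. A host gene was taken by its product name: elongation factor 1 or 2, translation initiation factor, release factor, ribosomal protein or tRNA ligase, leaving out names with kinase, transcription or mitochondrial. This gave 95 of the 4166 host genes listed for the Asian tiger mosquito (*Aedes albopictus*), with 211 of the 8690 circRNAs. These host genes, called members here, comprised 68 ribosomal protein genes, 12 matched as initiation factors, 7 elongation factor genes, 5 tRNA ligase genes and 3 release factor genes. The rule reads names only and no measured value. The 95 host genes carried 67 distinct product names, so some names stand at several genes.

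Whole bodies of virgin females and of virgin males were compared, both 2 days old and both from the Foshan laboratory strain; the labels name no treatment or transgene. Each sex had 3 pools of 30 mosquitoes, given as biological replicates by the series design. Total RNA was freed of ribosomal RNA and digested with RNase R, an enzyme that degrades linear RNA and leaves circles, so ordinary messenger RNA was not the quantity measured. Every pool mixes all tissues, gonads included.

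Translation starts when initiation factors bring the small ribosomal subunit and the initiator tRNA to the start codon of a messenger RNA. Elongation factors then deliver charged tRNAs, made by the tRNA ligases, and move the ribosome along. Release factors recognise the stop codon and free the finished protein. Ribosomal protein genes are known as short, strongly transcribed genes, and egg production in mosquitoes is known to demand much protein synthesis.

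The female libraries held 13322 to 17197 junction reads and the male libraries 21624 to 27257. Members gave 149 to 198 reads in each female library and 116 to 192 in each male library, 990 in all, and 74 of the 95 had 10 or fewer reads over the 6 libraries. At such depth a difference in most single members could not be detected. The libraries carry no molecular identifiers, so PCR copies count as separate reads, and the intervals and floors given here cover counting error only.

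Members took a larger share of the junction reads in females. The share was 1.13%, 1.15% and 1.12% in female replicates 1, 2 and 3, with 95% Wilson intervals of 0.977% to 1.30%, 1.00% to 1.32% and 0.953% to 1.31%. It was 0.536%, 0.587% and 0.704% in male replicates 1, 2 and 3, with intervals of 0.447% to 0.643%, 0.50% to 0.690% and 0.612% to 0.811%. Every female library thus lay above every male library, and no female interval touched a male one. The means were 1.13% ± 0.0173 in females and 0.609% ± 0.0861 in males (SD, n = 3 each), a ratio of 1.86. No p is given for a sum over chosen genes. In whole-body samples, fewer cells of a type and less RNA per cell cannot be told apart.

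The roles differed in how far they separated the sexes. Release factors, which end translation, took 0.333% ± 0.0561 of the reads in females and 0.105% ± 0.0297 in males. Ribosomal proteins, the structural parts of both subunits, took 0.495% ± 0.0546 in females and 0.329% ± 0.0323 in males. For these roles no female library reached down to a male one. Elongation factors took 0.150% ± 0.0828 in females and 0.0574% ± 0.00654 in males. Their female libraries too lay above all male libraries, but female replicate 1 alone reached 0.244%, against 0.0872% and 0.12% in female replicates 2 and 3.

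**Figure D1:**
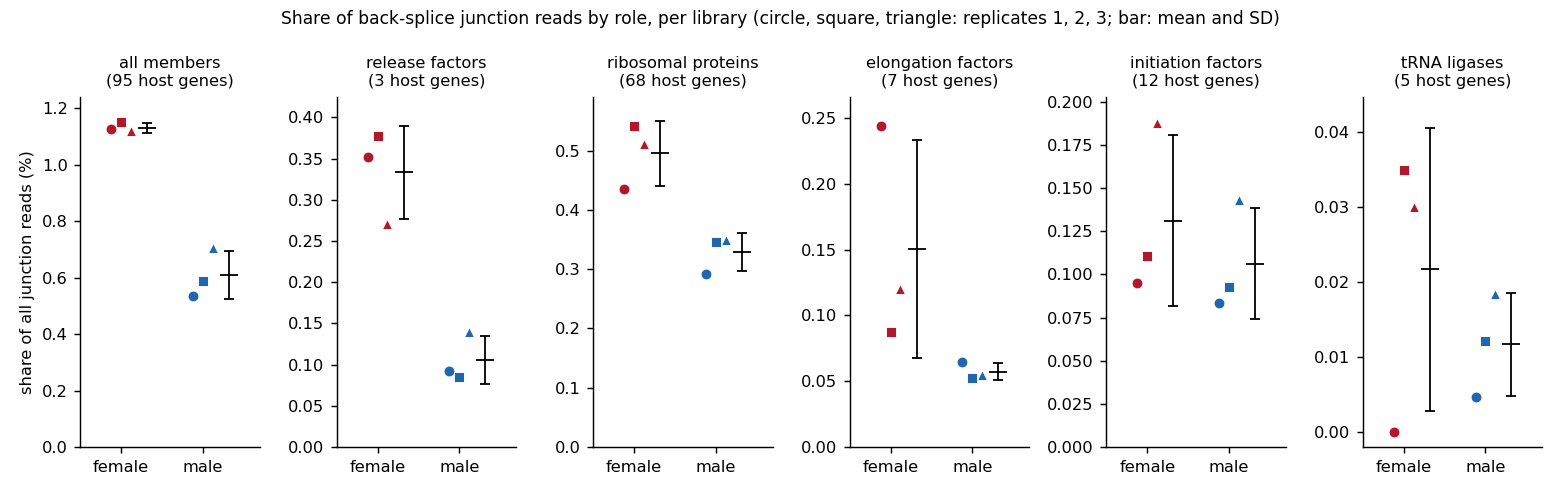
Share of all junction reads (%, y axis from 0) that came from all members and from each role, with 1 point per library (female left, male right; circle, square and triangle are replicates 1, 2 and 3) and the mean and SD (n = 3). All members, release factors, ribosomal proteins and elongation factors show no overlap between the sexes, whereas initiation factors and tRNA ligases overlap.

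The sexes overlapped for initiation factors, at 0.131% ± 0.0495 in females and 0.106% ± 0.0322 in males. Most of these reads belonged to Mextli, a protein that binds the cap-binding factor eIF4E in *Drosophila* and is matched here by its name. The Mextli gene and a Mextli-like gene together took 0.0618% ± 0.0341 in females and 0.0820% ± 0.0415 in males. Without these 2 genes the sexes did not overlap, at 0.0693% ± 0.0192 in females and 0.0243% ± 0.0173 in males. That rests on 32 female and 18 male reads over 10 genes, and this split was not a planned role. The 5 tRNA ligase genes had 10 female reads and 9 male reads in all, too few for a comparison.

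The larger female share did not rest on release factors alone. Without the 2 genes of release factor subunit 1, a comparison added after the data were seen, the remaining 93 members took 0.774%, 0.773% and 0.848% in female replicates 1, 2 and 3. The same 93 took 0.444%, 0.503% and 0.576% in male replicates 1, 2 and 3. The sexes still did not overlap, with means of 0.799% ± 0.0430 in females and 0.508% ± 0.0661 in males.

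Counted gene by gene, the direction was less one-sided. The mean level was higher in females for 51 of the 95 members (53.7%) and for 45.4% of all host genes. Among ribosomal protein genes it was higher in females for 34 and in males for 34. Reads in females alone were found for 20 members and reads in males alone for 32, whereas 43 had reads in both sexes. Over all host genes 13.7% had reads in females alone and 26.5% in males alone, beside deeper male libraries.

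Of the 95 members, 7 had enough reads for the test between the sexes, and 1 passed it. All 870 host genes with enough reads were fitted together by edgeR's quasi-likelihood method with Benjamini-Hochberg adjustment, and a gene was called at an adjusted p under 0.05, as 4.83% were. It called 1 member higher in females, where 2.53% of all tested host genes were called, and 0 members higher in males, where 2.3% were called. At an unadjusted p under 0.05 there were 5 members, each higher in females, where 8.74% of all tested host genes were, and DESeq2's Wald test also called 0 higher in males. In 5 of the 7 all female libraries lay above all male libraries, as in 11.7% of all tested host genes, and in 0 of the 7 the reverse held, as in 13.1%. The median log2 fold change, female over male, was 1.76 for the 7 and -0.05 for all tested host genes. Without the filter the median was 0.36 over all 95 members and -0.39 over all host genes. These 7 are not the whole set, and 88 members were not tested. A member with few male reads could pass the filter on its female libraries, so the direction was partly set by that selection. L13a (LOC109406734), S3a (LOC109429186) and elongation factor 2 (LOC109429586), all among the 5 without overlap, passed the filter on their female libraries alone.

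**Figure D2:**
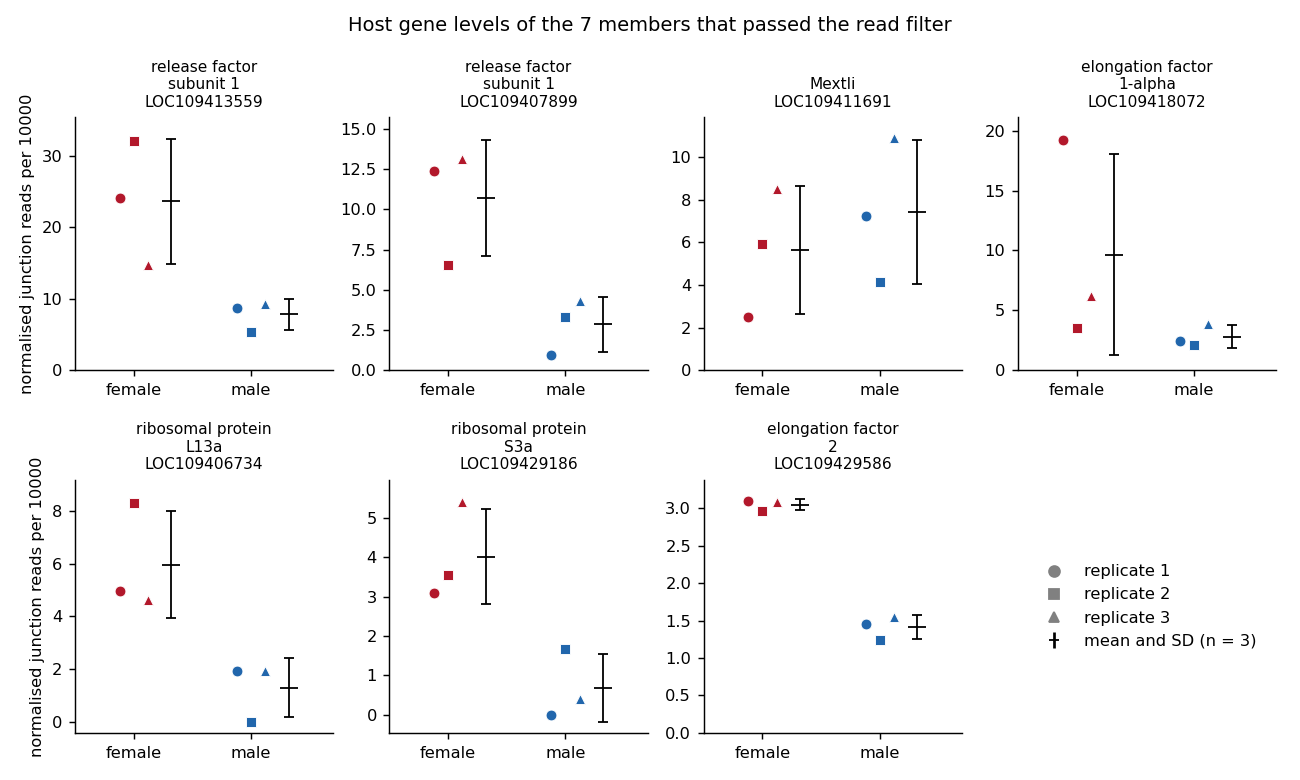
Levels of the 7 tested members (junction reads per 10000 of the TMM-scaled library, y axes differ), with 1 point per library, female left and male right, and the mean and SD (n = 3). Both genes of release factor subunit 1, L13a, S3a and elongation factor 2 have all female points above all male points, whereas Mextli and elongation factor 1-alpha overlap. L13a, S3a and elongation factor 2 passed the read filter on female libraries alone.

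Release factor subunit 1 (eRF1) reads the stop codon and triggers release of the protein chain. Its gene LOC109413559 had 39, 54 and 19 junction reads in female replicates 1, 2 and 3, against 18, 13 and 24 in male replicates 1, 2 and 3. Scaled for library size, the levels were 24.2, 32.1 and 14.7 reads per 10000 in females, against 8.70, 5.39 and 9.32 in males. All female libraries lay above all male libraries, and female replicate 3 was the lowest of its sex.

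The means for LOC109413559 were 23.6 ± 8.71 in females and 7.80 ± 2.11 in males (SD, n = 3 each), a 3.04-fold difference. The log2 fold change was 1.60 (SE 0.37), with an edgeR Benjamini-Hochberg adjusted p of 0.0068. It was the most abundant member and ranked 110 among all host genes by level. The call was lost without female replicate 2 (edgeR adjusted p = 0.088) and without male replicate 2 (edgeR adjusted p = 0.102). Of the 14 alternatives 12 passed, including an edgeR fit that summed this gene with its possible copy (adjusted p = 0.00014). In the others the adjusted p ran from 0.0014 (DESeq2 Wald test) to 0.102 (edgeR).

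The other eRF1 gene, LOC109407899, pointed the same way and missed the threshold. It had 20, 11 and 17 reads in female replicates 1, 2 and 3, against 2, 8 and 11 in male replicates 1, 2 and 3. The levels were 10.7 ± 3.61 in females and 2.85 ± 1.7 in males, again without overlap. The log2 fold change was 1.84 (SE 0.61, edgeR adjusted p = 0.078).

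Nearly all eRF1 reads came from 1 circRNA at each gene, and these circRNAs were alike in length. At LOC109413559 it ran from 85529 to 86250 on the plus strand of contig NW_021839213.1 and gave 93.4% of the reads of that gene. At LOC109407899 it ran from 41337375 to 41338096 on the minus strand of contig NW_021837489.1 and gave 92.8%. Both spanned 721 bases and had a spliced length of 644 bases, so an intron had been removed. Both genes also listed a longer circRNA of 1143 spliced bases that shared its upstream end with the short one, with 7 female reads and 5 female reads and no male read. Their sequences were not compared here. How reads were shared between possible copies is not given, and the split between the genes is uncertain.

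Each of these circRNAs was also tested singly. The one of LOC109413559 had 32, 50 and 19 reads in female replicates 1, 2 and 3, against 18, 13 and 24 in male replicates 1, 2 and 3, and ranked 96 among all circRNAs by level. Its level was 20.9 ± 7.69 in females and 7.42 ± 1.91 in males, which passed (edgeR adjusted p = 0.0073, log2 fold change 1.5 with SE 0.39). Raw reads overlapped here, at 19 in female replicate 3 and 24 in male replicate 3, and the scaled levels did not. Its counterpart at LOC109407899 stood at 9.38 ± 3.34 in females and 2.71 ± 1.59 in males, which did not pass (edgeR adjusted p = 0.069, log2 fold change 1.72 with SE 0.61).

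In the test of 738 circRNAs by edgeR, 3 members had enough reads. It called 1 higher in females, where 3.79% of all were called, and 0 higher in males, where 2.85% were called (6.64% in either direction). At an unadjusted p under 0.05 there were 2, both of eRF1 and higher in females, where 9.62% of all were, and DESeq2 called 0 higher in males. The call of the LOC109413559 circRNA was lost without a filter on low counts (edgeR adjusted p = 0.333) and without female replicate 2 (0.167), male replicate 2 (0.116) or male replicate 3 (0.056).

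Summed over both genes, so that the split between them no longer matters, eRF1 had 59, 65 and 36 reads in female replicates 1, 2 and 3. In male replicates 1, 2 and 3 it had 20, 21 and 35. Every female library exceeded every male library even in raw reads, despite the deeper male libraries. The levels were 34.3 ± 5.75 in females and 10.7 ± 2.59 in males, a log2 fold change of 1.69 (SE 0.31, edgeR adjusted p = 0.00014 over 841 host genes after copies were joined). If some reads were listed at both genes, the sum counts them more than once, and this SE and p would be too small.

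Host genes named for female germ line proteins were higher in females as a sum, not each singly. Over 5 such genes (3 pumilio-like genes, encore and a bicaudal D-related gene), the summed level was 26.6, 22.6 and 16.2 in female replicates 1, 2 and 3, against 5.80, 10.8 and 11.6 in male replicates 1, 2 and 3. Levels of the bicaudal D-related gene were 0.514 ± 0.891 in females and 0.682 ± 0.867 in males, and those of pumilio-like LOC109409584 were 6.56 ± 4.47 in females and 5.06 ± 2.74 in males, both with overlap. Of the 5, 2 were tested by edgeR and 0 passed, and vasa, oskar, nanos and vitellogenin receptor, the defining markers, had no listed circRNA. The 6 genes matched to the male germ line words include 2 spermine synthase-like genes caught by their spelling and 2 matched only by the words motile sperm domain. These 6 genes summed to 0, 0.594 and 2.32 in females, against 1.45, 2.90 and 3.49 in males. Their part in the eRF1 result was not tested.

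The third release factor gene, ERF3A (LOC109423943), encodes the GTPase partner of eRF1. It had 3 reads, all in male replicate 3, so nothing can be said of its direction.

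**Figure D3:**
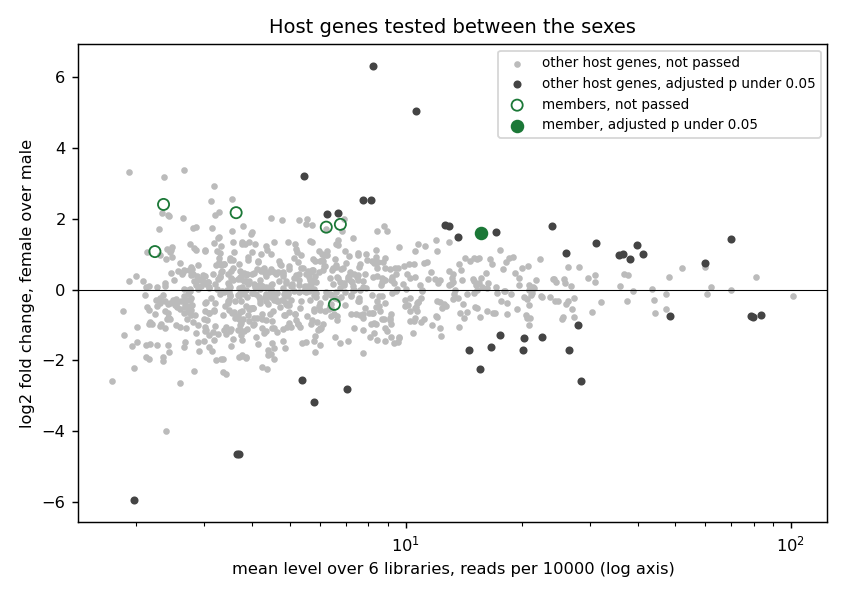
Log2 fold change, female over male, of the 870 tested host genes (y axis) against the mean level over 6 libraries (reads per 10000, log axis). Green marks the 7 members, of which the filled one, eRF1 gene LOC109413559, passed at an adjusted p under 0.05. Of the 7, 6 lie above 0, as do 47.6% of all tested host genes, and Mextli lies below at -0.42. L13a, S3a and elongation factor 2 passed the read filter on female libraries alone, so this count was partly set by that selection.

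Among initiation factors, 1 gene was abundant enough for the test. Mextli (LOC109411691) had 4, 10 and 11 reads in female replicates 1, 2 and 3, against 15, 10 and 28 in male replicates 1, 2 and 3. The sexes overlapped, with levels of 5.64 ± 3.02 in females and 7.42 ± 3.37 in males. The log2 fold change was -0.42 (SE 0.59, edgeR adjusted p = 0.776). All these reads belonged to 1 circRNA, from 43047002 to 43053616 on the plus strand of contig NW_021837378.1, which spanned 6614 bases and had a spliced length of 1123 bases. It was 1 of 3 member circRNAs with reads in all 6 libraries, beside the 2 of eRF1.

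The Mextli-like gene (LOC109404617), on the same contig, had 1, 0 and 2 female reads, against 0, 2 and 7 male reads. Its single circRNA was nearly as long once spliced, at 1120 bases, over a span of 17336 bases. It was too sparse to test.

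The remaining initiation factor genes had 2 to 13 reads. Subunit B of eIF3 (LOC109433182), part of the scaffold that holds the small subunit, had 4, 0 and 5 female reads, against 0, 0 and 4 male reads. Its female and male libraries overlapped at 0. Factor eIF5 (LOC109405394), which prompts GTP hydrolysis at the start codon, had 0, 3 and 3 female reads, against 0, 1 and 0 male reads. An eIF5-like gene (LOC115253429) had 0, 4 and 0 female reads, against 0, 1 and 0 male reads. These genes shared a circRNA span of 353 bases and a spliced length of 283 bases, and both had it in female replicate 2 and male replicate 2. Factor eIF4B-like (LOC109401877), a helper of the helicase that unwinds the leader of the message, had 0, 2 and 1 female reads, against 1, 0 and 0 male reads.

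Elongation factor 1-alpha carries charged tRNAs to the ribosome and is known as one of the most abundant proteins of the cell. Its gene LOC109418072 had 31, 6 and 8 reads in female replicates 1, 2 and 3, against 5, 5 and 10 in male replicates 1, 2 and 3. Female replicate 1 stood apart, and the other female libraries overlapped the male ones, with levels of 3.56 and 6.17 in females against 2.07 to 3.88 in males. The means were 9.65 ± 8.38 in females and 2.79 ± 0.962 in males. The log2 fold change of 1.76 (SE 0.66) did not pass (edgeR adjusted p = 0.119). Without female replicate 1 the log2 fold change was 0.76, and without female replicate 2 it was 2.12 and passed (edgeR adjusted p = 0.032).

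This gene gave more circRNAs than any other member, and few of them recurred. It listed 18 circRNAs within a gene of 3342 bases (104410779 to 104414120, minus strand of contig NW_021838153.1). In all 18 the spliced length equalled the span within 1 base, so none held an intron, and all 18 had an end inside the continuous block of another one. Of the 18, 15 were found in 1 library each. The circRNA found in most libraries, 1002 bases long, had 2, 3 and 3 female reads, against 1, 0 and 0 male reads. The one with most reads, 430 bases long, had 5, 0 and 0 female reads, against 2, 0 and 3 male reads.

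**Figure D4:**
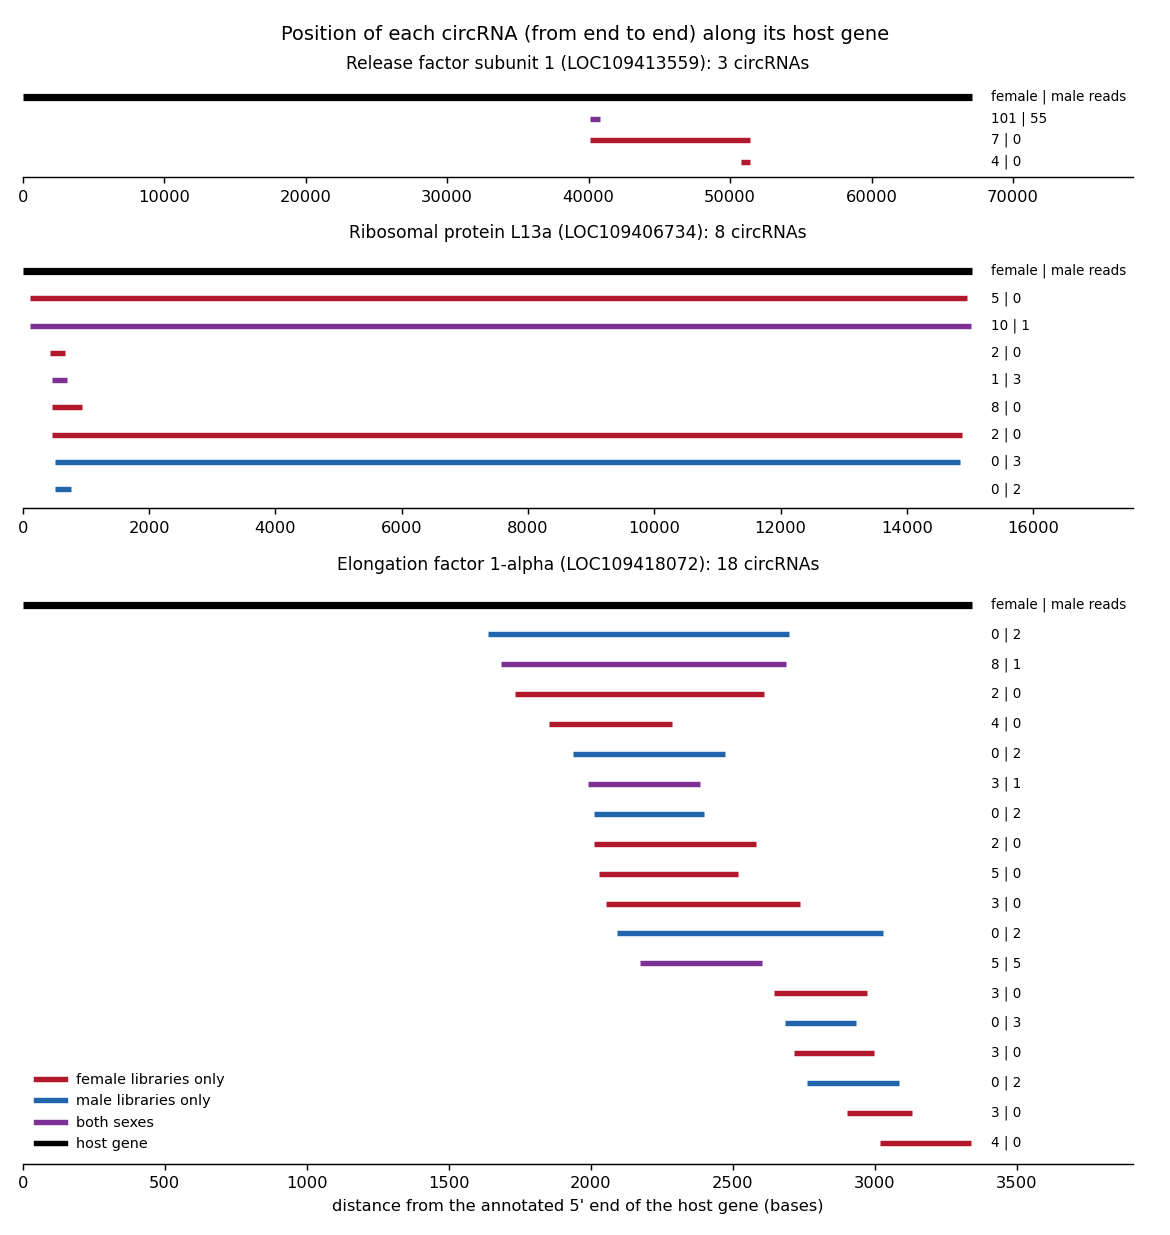
Position of every circRNA of 3 members along the host gene (x axis: bases from the annotated 5' end; black bar: gene; red, blue and purple: reads in females only, in males only, in both sexes; numbers at the right: female and male reads). The circRNAs of eRF1 share junctions inside a long gene, those of L13a include several that run nearly from end to end, and the 18 of elongation factor 1-alpha overlap with shifting ends.

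The other 2 genes named elongation factor 1-alpha were built differently, with 1 circRNA each of 1130 spliced bases. LOC109418321 had no female read and 3, 3 and 0 male reads. LOC109428099 had 0, 2 and 0 female reads, against 3, 0 and 1 male reads. Neither had enough reads for the test. The genes of the beta and gamma subunits of elongation factor 1 had 3 and 2 reads, each in 1 female library.

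Elongation factor 2 moves the ribosome by 1 codon. Gene LOC109429586 had 5, 5 and 4 reads in female replicates 1, 2 and 3, against 3, 3 and 4 in male replicates 1, 2 and 3. Raw reads met at 4, and the scaled levels separated, at 3.05 ± 0.0724 in females and 1.42 ± 0.158 in males. Only its female libraries reached the minimum of the read filter, so the separation was partly set by that selection. The log2 fold change of 1.07 (SE 0.99) did not pass (edgeR adjusted p = 0.630). Counts of 3 to 5 reads carry a counting error larger than the spread of these levels. Its 24 reads were spread over 8 circRNAs, 7 of them found in 1 library. A second gene, LOC109408551, had 2, 0 and 4 female reads, against 0, 2 and 0 male reads. It shared circRNAs of 197 and of 635 bases with LOC109429586, with the same reads at both genes.

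The 68 ribosomal protein genes held 48.3% of the members' reads, and no single one of their circRNAs was abundant. Their 151 circRNAs had at most 13 reads each. In 124 the reads came from 1 library, 20 were found in 2 libraries, 6 in 3 and 1 in 4. Both sexes had reads for 15 circRNAs and for 30 host genes. Small-subunit genes took 0.218% ± 0.0287 of junction reads in females and 0.137% ± 0.0551 in males, and large-subunit genes 0.278% ± 0.0427 in females and 0.192% ± 0.0232 in males.

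L13a (LOC109406734), a protein of the large subunit, had the most reads among them. It had 8, 14 and 6 reads in female replicates 1, 2 and 3, against 4, 0 and 5 in male replicates 1, 2 and 3. Female libraries lay above male libraries, at 5.97 ± 2.04 in females and 1.29 ± 1.12 in males. The gene passed the read filter on its female libraries alone, so this separation was partly set by the selection. The log2 fold change of 2.17 (SE 0.87) did not pass (edgeR adjusted p = 0.148). Of its 8 circRNAs, the one with most reads ran from 4703196 to 4718100 on the minus strand of contig NW_021838510.1, which is 112 bases from the annotated 5' end and 10 bases from the 3' end of the gene. It had 3, 7 and 0 female reads, against 1, 0 and 0 male reads.

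S3a, a small-subunit protein, was listed at 2 genes. LOC109429186 had 5, 6 and 7 reads in female replicates 1, 2 and 3, against 0, 4 and 1 in male replicates 1, 2 and 3. The groups did not overlap, at 4.02 ± 1.22 in females and 0.682 ± 0.867 in males, and the log2 fold change of 2.41 (SE 1.11) did not pass (edgeR adjusted p = 0.226). LOC109429186 too passed the read filter on female libraries alone, which partly set this separation. The second gene, LOC109398833, had 0, 7 and 4 female reads, against 2, 0 and 6 male reads, with overlap. In female replicate 3 both genes listed 4 reads of a circRNA that spanned 791 bases and was 656 bases long once spliced.

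Other abundant ribosomal protein genes showed no separation of the sexes. L4 (LOC109400082) had 7, 2 and 2 female reads, against 3, 7 and 0 male reads. L24 (LOC109433111) had 4, 1 and 4 female reads, against 5, 0 and 2 male reads. L8 (LOC109418058) had 0, 8 and 0 female reads, against 3, 7 and 0 male reads. These genes encode large-subunit proteins, and their reads were high in 1 or another library of either sex. S5 (LOC109428501), of the small subunit, had 0, 8 and 5 female reads, against 0, 6 and 0 male reads. Its female and male reads came from different circRNAs, and the largest, with 13 reads in females and none in males, spanned 12931 of the 13583 bases of the gene.

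Of the 68 ribosomal protein genes 30 had reads in both sexes, whereas 59.7% of all host genes did. Reads in 1 library only, which are always of 1 sex, were found for 29 of the 68. The genes with the most reads in 1 sex only are given for each sex. A second L4 gene (LOC109621625) had 12, 0 and 1 female reads and no male read. That is 6.66-fold higher in females if the 3 male libraries together are set to a floor of 3 reads. Such a fold takes the reads of the higher sex as exact, so it is no lower bound. Of the 13 reads of LOC109621625, 12 came from female replicate 1. Of the 13, 7 came from circRNAs that match L4 gene LOC109400082 in length, so its fold also depends on the split between copies. An L4-like gene (LOC115254348) had 4, 0 and 4 female reads and no male read, 4.10-fold higher by the same floor. Each of these female totals rests on 1 or 2 libraries, with 0 reads in at least 1 other.

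In the other direction, S10b-like (LOC115253970) had no female read and 0, 9 and 3 male reads. That is 2.60-fold higher in males with the same floor for the 3 female libraries together, again no lower bound. L18 (LOC109408924) had no female read and 4, 5 and 1 male reads, 2.17-fold higher in males by that floor. Its 220-base circRNA had 2 reads in male replicate 1, as did one of equal length at L18 gene LOC109622402. S2-like (LOC109422711) had no female read and 3, 0 and 5 male reads, 1.74-fold higher in males. Its 375-base circRNA had 3 reads in male replicate 3, against 2 for its match at S2 gene LOC109412318. The L18 and S2-like folds thus depend on the split between copies. Of the 5 genes given such a fold, L18 (LOC109408924) was the one with reads in every library of its sex, and none of the 5 was tested.

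tRNA ligases attach each amino acid to its tRNA. The highest by level was asparagine--tRNA ligase (LOC115254124), with 4 reads in female replicate 3 and none in other libraries. The most reads belonged to a bifunctional glutamate/proline--tRNA ligase-like gene (LOC109432116), with no female read and 1, 1 and 5 male reads. The isoleucine and tyrosine ligases had 4 and 2 reads, each in female replicate 2.

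circRNAs of members were built differently from those of other host genes. No intron lay inside 45.0% of member circRNAs (95 of 211), against 18.1% of those of other host genes. The share was 75.8% for elongation factors and 41.7% for ribosomal proteins, whereas none of the 6 release factor circRNAs lacked an intron. In each library taken alone, 34.1% to 45.1% of the member circRNAs held no intron, against 13.9% to 15.7% for other host genes. Once spliced, member circRNAs had a median length of 409 bases, with quartiles of 307 and 609.5, against 654 bases for other host genes.

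Many member circRNAs lay at the borders of their genes. Both ends were within 200 bases of the annotated gene ends in 19 member circRNAs (9.0%), all of ribosomal proteins, against 65 (0.864%) in other host genes. These took 2.68% to 11.6% of the members' reads per library, against 0.270% to 0.544% of the reads of other host genes. Member genes were also shorter, with a median length of 3182 bases against 68513 bases for other host genes, and 2170 bases for ribosomal proteins. A fixed distance of 200 bases covers more of a short gene, and the part of gene length in this difference was not tested.

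Member circRNAs recurred less between libraries. Reads in 1 library only were found for 168 of 211 member circRNAs (79.6%), against 41.5% for other host genes, and reads in all 6 libraries for 3 (1.42%) against 10.5%. Low counts move with this: 96.2% of member circRNAs had under 10 reads, against 72.5% for other host genes. Among circRNAs under 10 reads, 82.8% of those of members and 57.1% of the others were found in 1 library. In each library, 46.3% to 67.2% of its member circRNAs were found in no other library, against 14.8% to 18% for other host genes. An end inside the continuous block of another circRNA of the same gene, looked for in members only, was seen for 63 of the 211. Of these, 24 were of elongation factors, 18 of them at LOC109418072, and 39 of ribosomal proteins. The 721-base circRNAs of both eRF1 genes and the Mextli circRNA differed from this, with an intron inside, no end within 200 bases of a gene end and reads in every library.

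**Figure D5:**
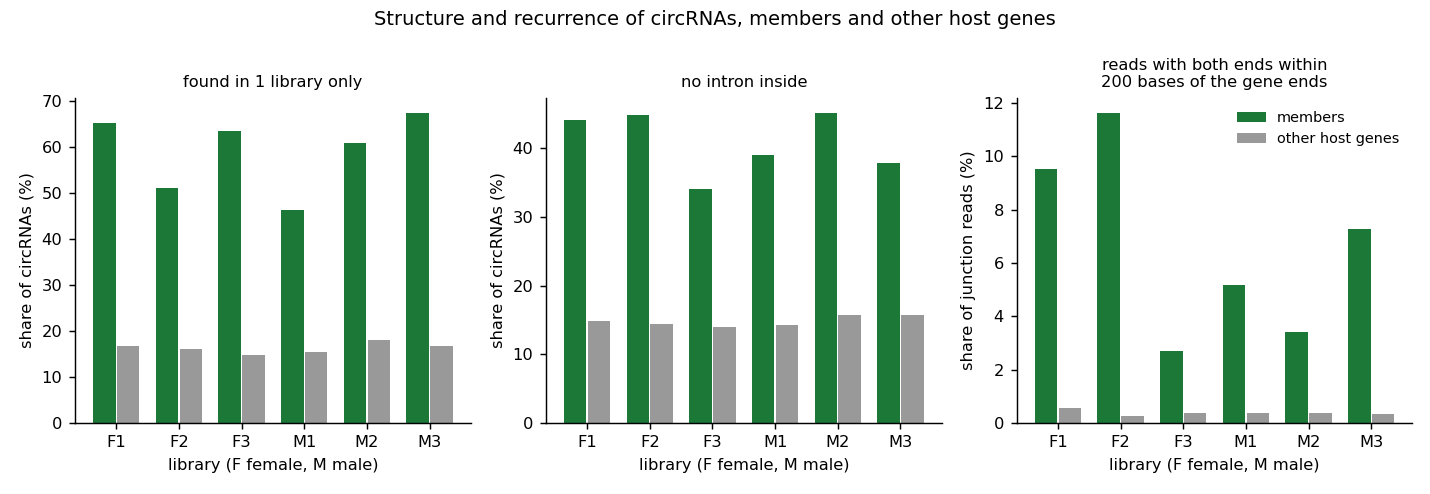
For each library (F female, M male, replicates 1 to 3), the share of circRNAs found in that library only, the share of circRNAs with no intron inside, and the share of junction reads with both ends within 200 bases of the gene ends (all in %), for members (green) and other host genes (grey). Members are above other host genes in all 6 libraries in each panel.

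Copies of the same gene limit what can be said of single members. In 79 member circRNAs, span and spliced length equalled those of a circRNA at another host gene. Of these, 24 at 20 host genes also had an intron inside or a partner of the same product name, apart from an ending in -like. Only these 24, which made 12 sets, were counted as possible copies. In several sets both genes had the same reads in the same library, as with L17 and L17-like (LOC109416411 and LOC109424016), each with 2 reads in male replicate 1. In S11 and L4 the sexes differed between the copies. The shared S11 circRNA had 3 reads in female replicate 3 at LOC109409318 and 4 reads in male replicate 2 at LOC115258589. The 307-base L4 circRNA had 3, 0 and 1 female reads and no male read at LOC109621625, whereas at LOC109400082 it had no female read and 1, 2 and 0 male reads.

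Genes that regulate translation, which are no members, were looked up by product name for comparison. Of 10 such host genes 4 were tested, and edgeR called 2 higher in females and 0 higher in males, beside the 2.53% and 2.3% of all tested host genes. Programmed cell death protein 4-like (LOC109408930), which blocks the helicase of initiation in mammals, had 18, 21 and 12 reads in female replicates 1, 2 and 3, against 5, 4 and 8 in male replicates 1, 2 and 3. Its log2 fold change was 2.17 (SE 0.59, edgeR adjusted p = 0.021), without overlap. Ribosomal protein S6 kinase beta-2 (LOC109418942), a kinase that phosphorylates a ribosomal protein, had 25, 28 and 37 female reads, against 4, 24 and 13 male reads, and passed with an edgeR adjusted p of 0.013 (log2 fold change 1.80, SE 0.46), although male replicate 2 came within 1 raw read of the lowest female library. The 2 mitochondrial translation genes had 11 female and 11 male reads. The 6 genes matched by name to ribosome and tRNA maturation had 19 female and 18 male reads, with 0 tested in both lists. In the maturation list, 8 female and 13 male reads came from nucleolar protein 4 (LOC109411260), caught by the words nucleolar protein alone.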

How the data were processed

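Circular RNA libraries of whole bodies, 3 female and 3 male pools, were grouped by the sex in the labels. The deposited table gives raw counts, whole numbers of reads across each back-splice junction in each library, per the file headers and the values. The submitters' processing notes name Bowtie2 2.1.0. Which genome build, annotation and circRNA caller were used is not given in the sources used here. Its 30393 lines repeat a circRNA for each protein of the host gene and were collapsed to 8690 circRNAs, of which 502 without a host gene were left out of host gene sums. Contig positions are as deposited. It was not settled whether starts count from 0 or 1: the spliced length was the end minus the start in 604 circRNAs, and shorter by 1 base in 836. The authors' table of normalised values was not used here.

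Counts per circRNA, and summed per host gene, were tested over the whole table with edgeR 4.0.16 in R 4.3.3: TMM scaling, filterByExpr (minimum count 5, minimum total 15), the quasi-likelihood F test of sex, and Benjamini-Hochberg adjustment at 0.05. Fold changes are female over male, on the log2 scale; their SE is their size divided by the root of the F statistic. A level is the number of reads per 10000 after TMM scaling, given as mean ± SD. P-values measure the spread between these pools. A fold against a sex without reads used 3 reads over its 3 libraries. On simulated counts the test of 870 host genes recovered 20% of 2-fold and 59% of 4-fold changes with 2 false calls among 670 unchanged, and that of 738 circRNAs recovered 20% and 63% with 3 false calls among 538. DESeq2 1.42.0 was an alternative. Figures used matplotlib 3.10.9 in Python 3.11.15.

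The members and lists were chosen with earlier results of these data known. Members described with values were the 12 highest by level, the highest of each role, those called, up to 3 per sex with 5 or more reads in that sex only, and those with a possible copy. Others were added after their values were seen: Mextli-like, ERF3A, the eIF3 subunit and eIF4B-like, elongation factor 1 genes beside the highest, tRNA ligases beside asparagine. Possible copies were narrowed, after values were seen, to circRNAs that had an intron inside or a partner of equal product name, apart from an ending in -like. Roles went by words in the product name. The replicate numbers were not used as pairs in the main fit, since the labels do not say that they mark a shared batch. Alternatives were other scalings, no filter, a replicate block, each library left out, copies summed and exon-exon junctions only. Added after seeing the data were circRNAs with an intron inside only and the share without release factor subunit 1.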

Additional observations from a re-analysis of the deposited data

How the results depend on the processing

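Member host genes called higher in females numbered 1, and 2 with the DESeq2 Wald test. Over the fits that left out 1 library they numbered 0 to 2, with 0 without male replicate 2, 2 without female replicate 2 and 1 otherwise. Without female replicate 2 the calls were LOC109407899 and elongation factor 1-alpha. Member circRNAs called higher in females numbered 1, and 0 without a filter on low counts and without female replicate 2, male replicate 2 or male replicate 3. The count higher in males was 0 under all alternatives run. The median log2 fold change of tested members was 1.76, and 0.36 without a filter, where all 95 members entered and the median of all host genes was -0.39. It ran from 1.31 to 1.84 when 1 library was left out.

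The member share of reads was 1.13% in females and 0.609% in males. Taken over circRNAs with 18 or more reads, as a share of the reads of such circRNAs, it was 0.511% in females and 0.248% in males. Only 3 member circRNAs had that many reads, those of Mextli and of both eRF1 genes, so this setting leaves out all other members. Without release factor subunit 1 the share was 0.799% in females and 0.508% in males. In females it was 1.24% of exon-exon junction reads, 0.926% with 1 circRNA of each set of copies and 1.01% of the reads of circRNAs with an intron inside. Male values under these last settings, 0.664%, 0.543% and 0.537%, moved by less than 1 SD. Leaving out 1 library gave 1.12% to 1.14% in females and 0.562% to 0.646% in males.

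Deviations of same-numbered libraries correlated at 0.0471, -0.0134 and -0.0130 for replicates 1, 2 and 3. The same female libraries set against the other male libraries gave -0.0648 to 0.0196, -0.00833 to 0.0215 and -0.0710 to 0.0821. With 3 libraries per sex and sparse counts, these values cannot settle whether the numbers mark a shared batch. With the number as a replicate block, 1 member host gene and 1 member circRNA stayed higher in females, both of LOC109413559, and the median was 1.56. Depth limits these results, since 87 of the 95 members had under 20 reads.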
